A study of Mus musculus with 4 samples.

Results

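Cxcl9 and Cxcl10 encode 2 chemokine ligands and Cxcr3 encodes their shared receptor. These 3 of the 17252 genes in the count table are described here across cells and treatments. They were chosen by name as ligand and receptor genes, with earlier results of these data known. CXCL9 and CXCL10 are small secreted proteins that attract cells bearing the G protein-coupled receptor CXCR3, which is best known on activated and type 1-polarized T cells and on NK cells. Interferon gamma is the classical inducer of Cxcl9, whereas Cxcl10 also responds to type I interferon and to NF-kappa B signals. In the spleen, macrophages, dendritic cells and stromal cells are known sources of these ligands.

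Single-cell RNA was profiled by Drop-seq, in which each transcript is counted once through a molecular tag (UMI), from spleens of BALB/c mice harvested 13 days after injection of 10000 BCL1 cells, a mouse B cell lymphoma line. By the labels, the combination library came from anti-CD20 given on day 4 plus anti-CD27 given on days 5 to 8, whereas the study's methods for the single-cell experiment give an earlier schedule, so the days are uncertain. The anti-CD27 library received anti-CD27 alone and the anti-CD20 library anti-CD20 alone, and the isotype control library received an irrelevant antibody, its columns being named PBS in the table. Each treatment is 1 library, the number of mice behind it is not given in the sources used here, and treatment and library cannot be told apart. No p-value is therefore given between treatments. Intervals below are 95% intervals that cover counting error only, take every UMI as independent and are too narrow where many UMIs lie in 1 cell.

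Of 3198 barcodes, 1770 had between 300 and 3000 detected genes and were kept as cells: 432 in the combination library, 497 with anti-CD27, 501 with anti-CD20 and 340 with isotype control. They held 917486, 908930, 939565 and 440710 UMIs in that order, with median depths of 1031 to 1395.5 UMIs a cell, so the isotype control library was the shallowest. No kept barcode was shared between libraries. Cells were clustered without the 3 genes or the pathway genes listed for them, and clusters were called "X-like" from their marker genes. Macrophage-like and monocyte-like clusters were read together as 1 class of 159 cells, which held 86 cells of the combination library, 40 with anti-CD27, 21 with anti-CD20 and 12 with isotype control. These were 19.9%, 8.05%, 4.19% and 3.53% of the libraries' cells.

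Cxcl9 and Cxcl10 are neighbours on mouse chromosome 5 and both are read from the minus strand (mm10, GENCODE vM21). Cxcl9 spans chr5:92321347-92328079 and Cxcl10 spans chr5:92346638-92348889, each with 4 exons, and 18558 bases lie between them. Cxcr3 lies at chrX:101731535-101734269 on the minus strand with 2 exons. Art3, on the plus strand, overlaps Cxcl10 with 1 of its exons and had 9 UMIs over all barcodes against 335 for Cxcl10, and since the counting is not stated to use strand, reads of the overlap could not be told apart. Cxcl11, the gene next to Cxcl10, is annotated as a polymorphic pseudogene in this reference. It is absent from the count table, so it could not be analysed in these mice.

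The 250 bases before the RefSeq start of each ligand gene (GRCm38.p6, minus strand) are shown. Both ligands were higher in the libraries with anti-CD27 and lay mostly in macrophage/monocyte-like cells, but their balance differed between cell classes, as described below. Capitals mark matches, on either strand, to GAAANNGAA (from the core of an interferon-stimulated response element), TTCNNNGAA (a gamma-activated site) or GGGNNNTTC (from an NF-kappa B-like site).
Cxcl9 (chr5:92328080-92328329): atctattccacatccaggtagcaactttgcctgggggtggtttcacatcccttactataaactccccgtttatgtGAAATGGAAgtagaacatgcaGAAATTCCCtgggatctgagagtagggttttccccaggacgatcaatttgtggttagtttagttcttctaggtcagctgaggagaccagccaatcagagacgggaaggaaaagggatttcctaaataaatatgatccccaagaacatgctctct
Cxcl10 (chr5:92348890-92349139): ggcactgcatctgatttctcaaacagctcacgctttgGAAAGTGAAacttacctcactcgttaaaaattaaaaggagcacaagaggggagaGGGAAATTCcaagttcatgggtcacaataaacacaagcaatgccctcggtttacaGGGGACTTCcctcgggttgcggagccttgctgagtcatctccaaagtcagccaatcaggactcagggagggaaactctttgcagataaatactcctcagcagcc
The Cxcl9 window held 1 match to GAAANNGAA, 175 to 167 bases before the start, and 1 to GGGNNNTTC, at 154 to 146 bases on the opposite strand. The Cxcl10 window held 1 match to GAAANNGAA, at 213 to 205 bases, and 2 to GGGNNNTTC, at 159 to 151 and 104 to 96 bases. Neither window held TTCNNNGAA. Among 32851 promoter windows of the same length, GAAANNGAA was found in 7.13%, TTCNNNGAA in 7.02% and GGGNNNTTC in 11.8%. The motifs were first searched in a longer form and then shortened by their last base, an A for GAAANNGAA and a C for GGGNNNTTC, so the choice of form followed the result. In the longer form, found in 2.98% and 4.65% of windows, Cxcl10 kept its 3 matches and Cxcl9 had none. A match describes the letters only, and sites further from the start were not searched.

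Both ligands were high in the 2 libraries that received anti-CD27 and low in the other two, whereas the receptor followed no such split. Over all kept cells, Cxcl9 was at 641 counts per 1000000 UMIs (CPM; interval 590 to 695) with combination, 354 (317 to 395) with anti-CD27, 20.2 (12.2 to 31.6) with anti-CD20 and 11.4 (3.68 to 26.5) with isotype control. Cxcl10 was at 253 CPM (221 to 288) with combination, 91.3 (72.7 to 113) with anti-CD27, 5.32 (1.73 to 12.4) with anti-CD20 and 9.08 (2.47 to 23.2) with isotype control. For neither ligand did the interval of a library with anti-CD27 overlap that of a library without it. Cxcr3 was at 34.9 CPM (23.9 to 49.2) with combination, 29.7 (19.6 to 43.2) with anti-CD27, 46.8 (34.0 to 62.9) with anti-CD20 and 22.7 (10.9 to 41.7) with isotype control, and these intervals overlapped. These levels rest on 934 UMIs of Cxcl9 in 114 cells, 324 of Cxcl10 in 71 cells and 113 of Cxcr3 in 87 cells.

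**Figure D1:**
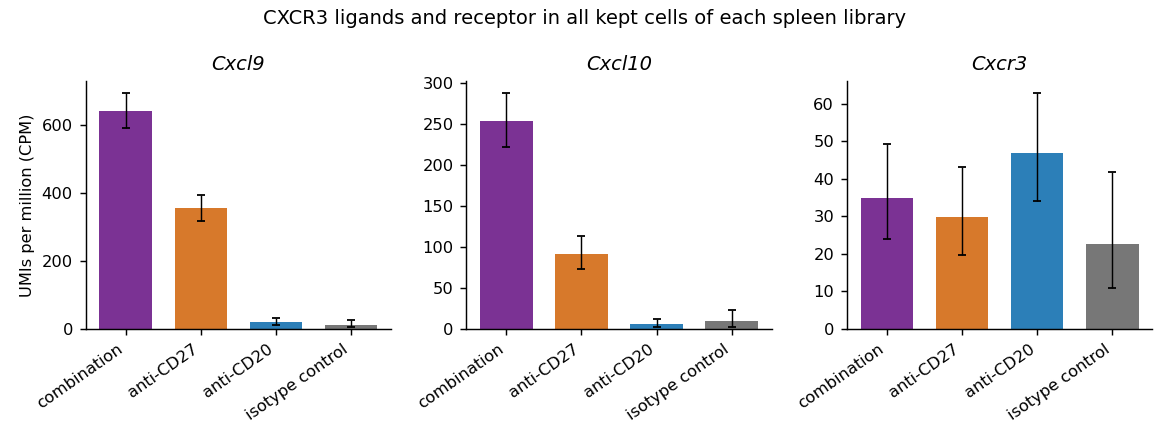
Level of Cxcl9, Cxcl10 and Cxcr3 in CPM over all kept cells of each library, with exact Poisson 95% intervals as bars. Both ligands stood higher in the combination and anti-CD27 libraries than in the anti-CD20 and isotype control libraries, while the Cxcr3 intervals overlapped.

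Set against anti-CD20 alone, the combination library had Cxcl9 higher by 4.99 on the log2 scale (4.33 to 5.73) and Cxcl10 by 5.57 (4.33 to 7.21), which are 31.7-fold and 47.5-fold. Anti-CD27 alone against isotype control gave log2 ratios of 4.97 (3.727 to 6.597) for Cxcl9 and 3.33 (1.92 to 5.24) for Cxcl10. For Cxcr3 the same comparisons gave -0.43 (-1.13 to 0.26) and 0.39 (-0.70 to 1.60), so no difference was detectable at this depth, and differences as large as these bounds remain possible. With no upper limit on detected genes the first of these was -0.88 (-1.57 to -0.21), below 0. Anti-CD20 alone against isotype control gave 1.05 (0.03 to 2.20) for Cxcr3, an interval just above 0. The combination library exceeded the anti-CD27 library by 0.86 (0.66 to 1.06) for Cxcl9 and by 1.47 (1.10 to 1.85) for Cxcl10. Macrophage/monocyte-like cells also took a larger share of the combination library, and the levels within that class are given next.

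Ligand and receptor transcripts lay mostly in different cell classes. Over the 4 libraries, macrophage/monocyte-like cells were 8.98% of cells and 11.7% of UMIs and held 798 of 934 Cxcl9 UMIs (85.4%, 83.0 to 87.6), 204 of 324 Cxcl10 UMIs (62.96%, 57.5 to 68.2) and 0 of 113 Cxcr3 UMIs. T-like, effector CD8 T-like and NK-like cells were 34.2% of cells and 27.6% of UMIs and held 84 of 113 Cxcr3 UMIs (74.3%, 65.3 to 82.1). In the combination library these lymphocyte classes held 30 of 32 Cxcr3 UMIs (93.8%). Of 146 cells with a UMI of either ligand, 1 also had a Cxcr3 UMI. Cxcr3 was found in only 87 of all 1770 kept cells (4.92%), so this small overlap says little by itself.

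**Figure D2:**
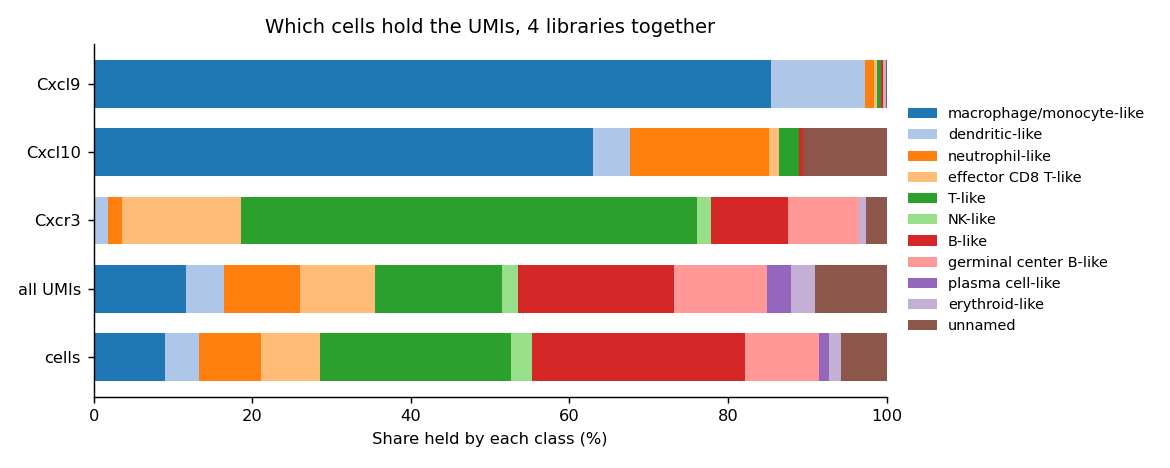
Share of the UMIs of Cxcl9, Cxcl10 and Cxcr3 that lay in each cell class, beside the class shares of all UMIs and of all cells, in percent, with the 4 libraries together. Cxcl9 lay mostly in macrophage/monocyte-like cells, Cxcl10 also in neutrophil-like and unnamed cells, and Cxcr3 mostly in T-like cells.

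Within the macrophage/monocyte-like class, Cxcl10 was found in the libraries that received anti-CD27, with or without anti-CD20, and in neither of the others. It was at 664 CPM (562 to 780) in the combination library, in 26 of 86 cells, and at 598 CPM (450 to 778) with anti-CD27, in 11 of 40 cells. It had 0 UMIs in the 21 cells with anti-CD20 and 0 in the 12 with isotype control, where counts of 0 allow up to 84.2 and 270 CPM. Set against a floor of 3 counts per library, Cxcl10 was 9.69-fold higher with combination than with anti-CD20 and 2.72-fold higher with anti-CD27 than with isotype control. These are not lower bounds, since the floor lies below the upper limit of a count of 0. The exact intervals of the log2 ratios began lower, at 2.96 and 1.10. Between the combination and anti-CD27 libraries the log2 ratio within this class was 0.15 (-0.30 to 0.63) for Cxcl10 and -0.20 (-0.42 to 0.02) for Cxcl9, both intervals including 0. These groups drew on different clusters, since cluster 7 gave 46 and 24 cells to the libraries with combination and anti-CD27 but 2 and 0 cells to those with anti-CD20 and isotype control.

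Cluster 7, the largest of the class with 72 cells, was led by Cfb (complement factor B), Ly6i, Saa3 and the scavenger receptor gene Msr1. It held 660 Cxcl9 UMIs and 128 Cxcl10 UMIs. Cxcl9 was at 3681 CPM (3337 to 4051) in 36 of its 46 cells with combination and at 4469 CPM (3923 to 5070) in 19 of its 24 cells with anti-CD27. Cxcl10 was at 764 CPM (612 to 943) in 16 of 46 cells with combination and at 760 CPM (546 to 1031) in 9 of 24 cells with anti-CD27. Most cells of this cluster thus had Cxcl9 in both libraries, and fewer had Cxcl10.

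Cluster 13, 35 cells led by Fcna, the complement C1q genes, Cd5l and Vcam1, was called macrophage-like and was present in all 4 libraries. Its Cxcl9 level was 3199 CPM (2575 to 3927) in 7 of 15 cells with combination, 1219 (557 to 2313) in 1 of 3 cells with anti-CD27, 463 (247 to 792) in 1 of 12 cells with anti-CD20 and 0 in 5 cells with isotype control. Cxcl10 in the same cells was at 1160 CPM (798.5 to 1629) with combination, in 5 cells, and at 135 CPM with anti-CD27 from 1 UMI, and was not detected with anti-CD20 or isotype control. The 13 Cxcl9 UMIs with anti-CD20 lay in 1 cell.

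Cluster 9, 52 cells led by F13a1 and Ccr2 (the receptor for monocyte exit from marrow) and rich in Ly6c2, was called monocyte-like. Cxcl10 was at 353 CPM (237 to 507) in 5 of 25 cells with combination and at 423 CPM in 1 of 13 cells with anti-CD27, where all 13 UMIs lay in that cell. Cxcl9 was at 280 CPM (178 to 420) in 7 cells with combination and at 65.1 CPM (7.88 to 235) in 2 cells with anti-CD27. Neither ligand was detected in its 7 cells with anti-CD20 or its 7 cells with isotype control. Of the 3 clusters of the class, this was the one in which Cxcl10 UMIs outnumbered those of Cxcl9, at 42 against 25. Of these 42, 12 lay in 1 cell with combination and 13 in the 1 cell with anti-CD27.

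**Figure D3:**
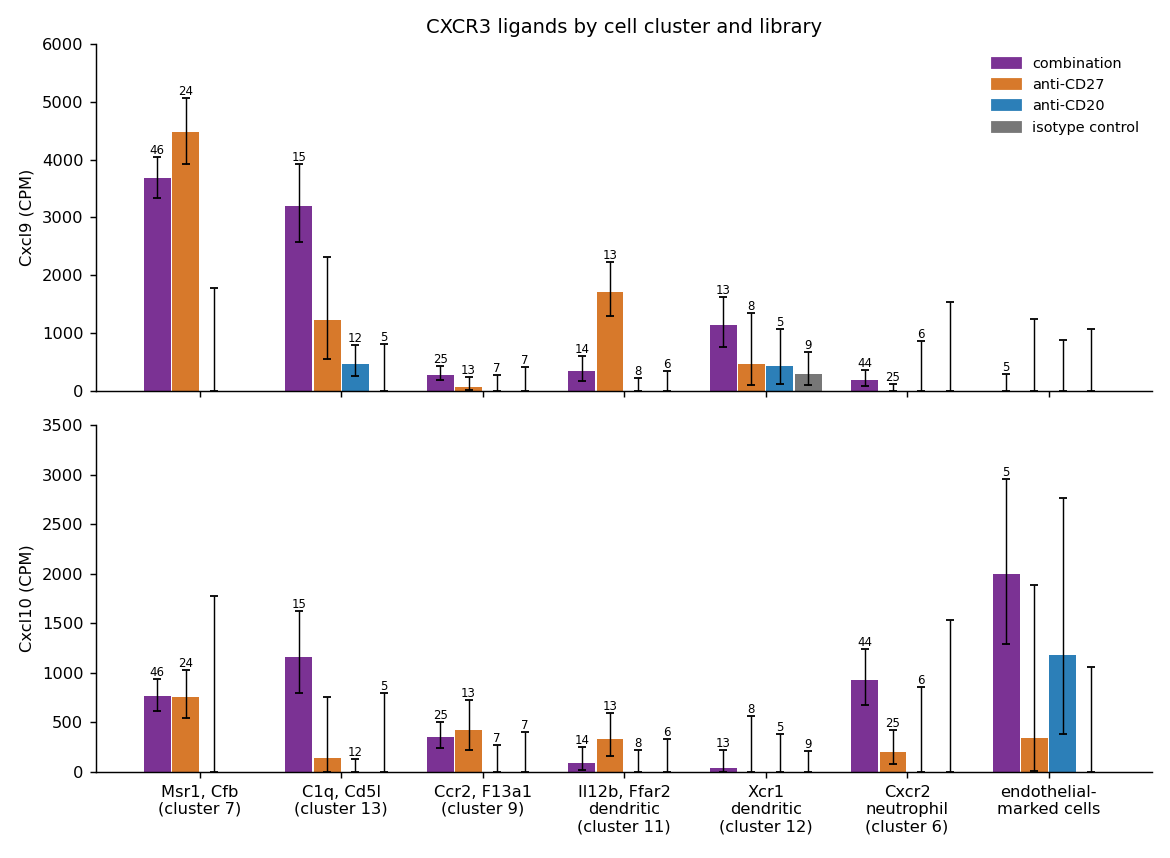
Level of Cxcl9 (top) and Cxcl10 (bottom), in CPM with exact Poisson 95% intervals, in the macrophage-like, monocyte-like, dendritic-like and Cxcr2 neutrophil-like clusters and in endothelial-marked cells of each library; numbers above the bars are cells, where there were at least 5. Cxcl9 was highest in clusters 7 and 13, while Cxcl10 was also high in cluster 6 and in endothelial-marked cells with combination.

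Cxcl9 and Cxcl10 were often found in the same macrophage/monocyte-like cells. Of the 159 cells, 33 had both ligands, 40 had Cxcl9 only, 4 had Cxcl10 only and 82 had neither. Cxcl9 was found in 89.2% of the cells with Cxcl10, against 32.8% of those without it. The cells with Cxcl10 were also deeper, with a median of 2661 UMIs against 1571.5, and the part of depth in this overlap was not tested.

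**Figure D4:**
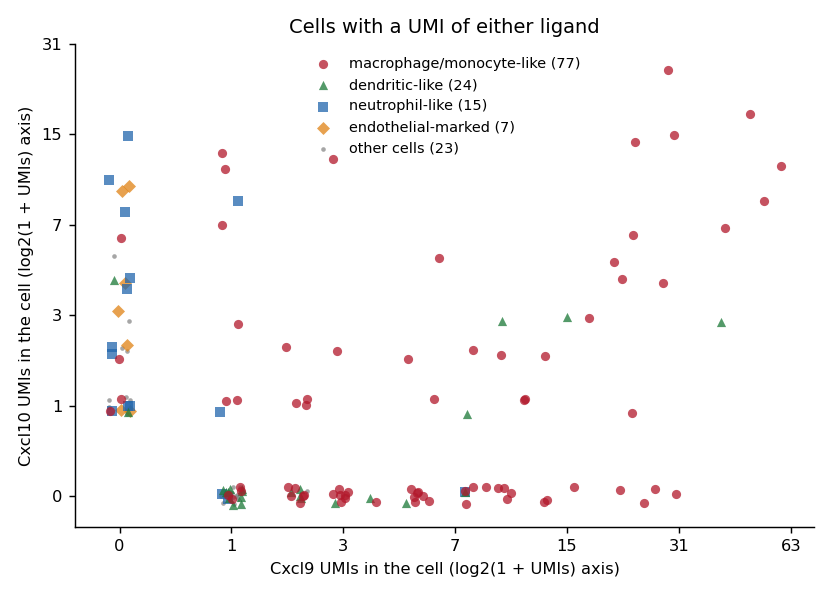
UMIs of Cxcl9 (horizontal) and Cxcl10 (vertical) in each of the 146 cells with a UMI of either ligand, on log2(1 + UMIs) axes with a small spread to separate points, coloured by cell class. Macrophage/monocyte-like cells filled the area of both ligands, most neutrophil-like cells lay along the Cxcl10 axis, and endothelial-marked cells had Cxcl10 alone.

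Dendritic-like cells made mainly Cxcl9, and among them were most cells with Cxcl9 in the libraries without anti-CD27. Cluster 12 held 35 cells led by Xcr1, Siglech and Naaa, with Clec9a also among its leading 10 genes, and was not divided by dendritic lineage. It had Cxcl9 at 1130 CPM (757 to 1622) in 8 of 13 cells with combination, 461 (95.03 to 1347) in 2 of 8 with anti-CD27, 419 (114 to 1073) in 3 of 5 with anti-CD20 and 284 (92.3 to 663.5) in 3 of 9 with isotype control. The intervals of the 3 libraries other than combination overlapped each other, and that with isotype control lay below that with combination. These were all 3 of the cells with Cxcl9 in the isotype control library and 3 of the 6 in the anti-CD20 library. Cxcl10 had 1 UMI in the whole cluster.

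Cluster 11, 41 dendritic-like cells led by Ppp1r14a, Il12b (a subunit of interleukin 12) and Ccnd1 and holding Ffar2 and Cd209a, had Cxcl9 at 342 CPM in 2 of 14 cells with combination and at 1716 CPM in 4 of 13 cells with anti-CD27. Of the 57 UMIs with anti-CD27, 41 lay in 1 cell. Cxcl10 was at 85.5 CPM with combination, in 1 cell, and at 331 CPM with anti-CD27, in 4 cells. Neither ligand was detected in its 8 cells with anti-CD20 or its 6 with isotype control. For the dendritic-like class as a whole, the Cxcl9 log2 ratio was 2.15 (0.69 to 4.09) for combination against anti-CD20 and 3.11 (1.81 to 4.78) for anti-CD27 against isotype control, the second being 1.67 without the cell of 41 UMIs. The second ratio was 0.74 with Scrublet doublets removed and 0.72 with the shallower of barcodes 1 base apart removed, so it depends on which cells are kept. Without those barcodes the first ratio was 1.41 (-0.10 to 3.38), which includes 0.

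Neutrophil-like cells held Cxcl10 with little Cxcl9. The class had 57 Cxcl10 UMIs and 11 Cxcl9 UMIs, of which 52 and 9 lay in cluster 6, marked by Cxcr2 and Il1b. In cluster 6, Cxcl10 was at 924 CPM (674 to 1237) in 7 of 44 cells with combination and at 204 CPM (82.1 to 421) in 3 of 25 cells with anti-CD27, and had 0 UMIs in 6 cells with anti-CD20 and 3 with isotype control. Over all neutrophil-like cells the log2 ratio of combination to anti-CD27 was 1.71 (0.74 to 2.81), from 46 UMIs in 8 of 71 cells against 11 UMIs in 4 of 50. The libraries with anti-CD20 and isotype control held 9 and 8 neutrophil-like cells, which are too few to say whether Cxcl10 was absent there.

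A small set of endothelial-marked cells had Cxcl10 alone. These are the 10 cells with at least 3 UMIs of Pecam1, Cdh5, Plvap and Kdr together, a rule set after the data were seen. Cxcl10 was at 2001 CPM (1295 to 2954) in 4 of 5 such cells with combination, at 338 CPM in the 1 cell with anti-CD27, at 1185 CPM (385 to 2764) in 2 of 2 cells with anti-CD20 and at 0 in 2 cells with isotype control. Cxcl9 had 0 UMIs in all 10. The 2 cells with anti-CD20 held all 5 Cxcl10 UMIs of that library. Within cluster 5, an unnamed mixture that also holds basophil-marked cells, endothelial-marked cells held 31 of 33 Cxcl10 UMIs (93.9%), and the 7 basophil-marked cells held none.

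The balance of the ligands differed between cell classes. Cxcl10 was 20.4% (17.9 to 23.0) of both ligands' UMIs in macrophage/monocyte-like cells, 12% (6.87 to 19.02) in dendritic-like cells and 83.8% (72.9 to 91.6) in neutrophil-like cells. Among clusters it was 16.2% in cluster 7, 23.1% in cluster 13, 62.7% (50.01 to 74.2) in monocyte-like cluster 9, 2.38% in Xcr1 dendritic cluster 12 and 85.3% (73.8 to 93.0) in cluster 6. Within the combination library alone it was 21.9% in macrophage/monocyte-like cells, 55.8% (41.3 to 69.5) in cluster 9 and 80.7% (68.1 to 90.0) in neutrophil-like cells. The balance of UMIs thus differed within 1 library as well, but few cells held them. Cxcl10 lay in 5 of 25 cells of cluster 9 and in 8 of 71 neutrophil-like cells. Without the cell of 12 Cxcl10 UMIs, cluster 9 kept 17, against 23 Cxcl9 UMIs in all its cells of that library.

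In the combination library the order of Cxcl10 levels was macrophage/monocyte-like cells at 664 CPM, then neutrophil-like cells at 293, then the unnamed clusters at 229. The first exceeded the second by 1.18 on the log2 scale (0.69 to 1.69), and the second did not differ from the third beyond counting error (0.36, -0.38 to 1.12). The unnamed level averages a mixture, since all 25 UMIs lay in 4 of 43 cells, each endothelial-marked. The 5 endothelial-marked cells of this library taken alone were at 2001 CPM (1295 to 2954), above the macrophage/monocyte-like level.

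Cxcr3 was carried mainly by T-like cells. It was at 139.5 CPM (85.2 to 215) in 14 of 120 T-like cells with combination, 127 in 9 of 84 with anti-CD27, 143 in 21 of 162 with anti-CD20 and 56.6 in 3 of 61 with isotype control, where it rests on 4 UMIs. In effector CD8 T-like cells it was at 68.3 CPM in 5 of 58 cells with combination, 27.6 in 4 of 62 with anti-CD27, 261 in 3 of 10 with anti-CD20 and 0 in 2 with isotype control. Both T cell classes together gave log2 ratios of -0.53 (-1.30 to 0.24) for combination against anti-CD20 and 0.32 (-1.30 to 2.35) for anti-CD27 against isotype control. A change in Cxcr3 within T cells was thus not detectable at this depth. With combination, T-like cells did not exceed effector CD8 T-like cells beyond counting error (1.03, -0.13 to 2.29).

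**Figure D5:**
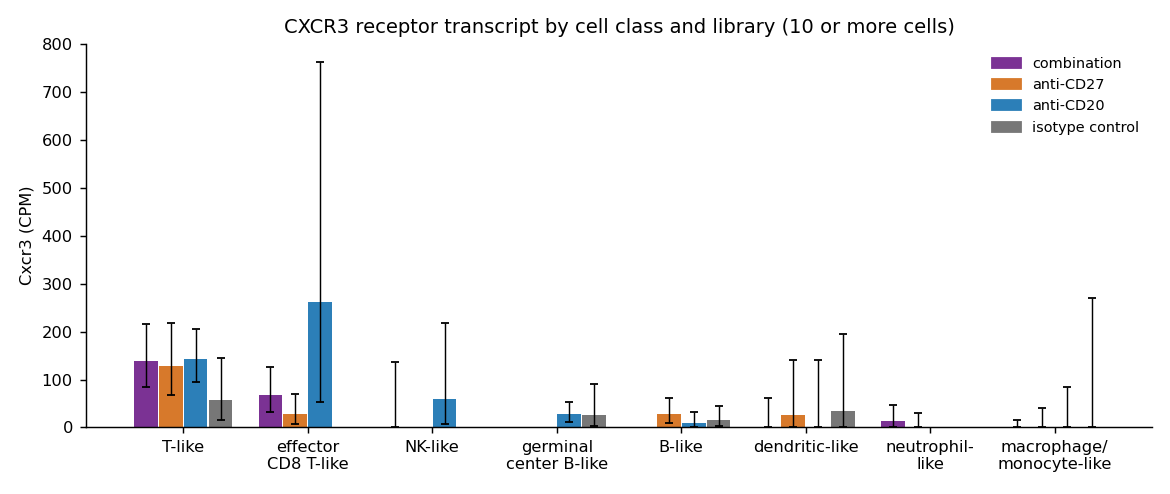
Cxcr3 level in CPM by cell class and library, for groups of at least 10 cells, with exact Poisson 95% intervals. T-like cells held Cxcr3 in all 4 libraries and their intervals overlapped, and macrophage/monocyte-like cells had none.

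The share of cells with a Cxcr3 UMI was compared at a common depth of 400 UMIs a cell. It was 3.75% at that depth (11.01% unthinned) in T-like cells and 2.66% (9.09%) in effector CD8 T-like cells. In classes that should lack the gene it was 0.516% (3.70%, 1 of 27 cells) in erythroid-like cells and 0.374% (1.45%, 2 of 138) in neutrophil-like cells, at median depths of 3333 UMIs in erythroid-like and 994 in T-like cells. Macrophage/monocyte-like cells had it in 0 of 159 cells, at a median of 1936 UMIs. B-like cells, at 0.532% (1.89%, 9 of 476), stood close to the erythroid-like value at the common depth. Their level was 17.4 CPM (8.70 to 31.2), against 6.56 (0.795 to 23.7) in neutrophil-like cells and 0 (up to 9.87) in macrophage/monocyte-like cells. Whether the B-like UMIs are background was not tested. Germinal center B-like cells stood at 1.66% (5.49%, 9 of 164) and 26.6 CPM, below the T-like level of 127 CPM. NK-like cells had 2 UMIs in the 27 cells with anti-CD20.

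Among T cells with Cd4 or Cd8 transcripts, Cxcr3 was more often found beside Cd4 than beside Cd8. Cells with Cd4 and no Cd8 transcripts had Cxcr3 at 207.5 CPM (143 to 291.5) in 21 of 97 cells, and cells with Cd8 and no Cd4 had it at 64.7 CPM (41.5 to 96.3) in 19 of 203 cells. The 251 T cells with neither transcript had it at 96.2 CPM (62.3 to 142) in 19 cells and could not be assigned. Their median depth was 865 UMIs, against 1289 in Cd4 cells and 1363 in Cd8 cells. In Cd4 cells the level was 275 CPM with combination, 154 with anti-CD27, 169 with anti-CD20 and 246 with isotype control. In Cd8 cells it was 66.0 CPM with combination, 41.9 with anti-CD27, 127 with anti-CD20 and 0 in 14 cells with isotype control. The Cd4 level stood above the Cd8 level in each of the 4 libraries, with overlapping intervals in the libraries other than combination. Among Cd8 cells, Cxcr3 was at 41.4 CPM (18.9 to 78.7) in the effector CD8 T-like class and 97.7 CPM (54.7 to 161) in the T-like class, intervals that overlapped.

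Among genes past the count minimum, those that respond to interferon gamma moved with the ligands in macrophage/monocyte-like cells. The minimum was on the counts of both libraries together. The class held 224373 UMIs with combination and 43794 with anti-CD20, and 92042 with anti-CD27 and 13673 with isotype control. A gene could thus pass through the library with anti-CD27 alone, so the counts of genes below are no test. Cluster 7 gave 46 cells with combination and 24 with anti-CD27 but 2 with anti-CD20 and 0 with isotype control, and its part was not tested. Of 23 such genes listed besides the ligands, 16 passed the count minimum for combination against anti-CD20, and 16 of 16 were more than 2-fold higher with combination, where 19.5% of all 1757 genes measured were that much higher and 5.46% that much lower. The median log2 ratio of these genes was 2.44, against 0.25 over all genes. These ratios and calls between libraries were taken with 10 CPM added to each level. Iigp1, an immunity-related GTPase, was at 1689 CPM with combination and 114 with anti-CD20, and Gbp4, a guanylate-binding protein gene, was at 1012 CPM with combination and 68.5 with anti-CD20. Psmb9, an immunoproteasome subunit, was at 686 CPM with combination and 320 with anti-CD20. Irf1, a transcription factor gene induced by interferon, had a log2 ratio of 1.21, while the receptor gene Ifngr1 had -0.97, and 2 of 6 measured genes of this signalling list passed 2-fold upward. For anti-CD27 against isotype control, 11 of 11 measured interferon gamma-responsive genes were more than 2-fold higher with anti-CD27, where 19.7% of 609 genes were that much higher and 8.87% that much lower. Their median log2 ratio was 2.79 against 0.09 over all genes, or 1.98 with the 4 genes at 0 in the isotype control library set to their floor. The signalling list had 3 of 3 measured genes past 2-fold upward in this comparison.

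Within the anti-CD27 and combination libraries together, macrophage/monocyte-like cells with a Cxcl9 UMI were set against those without. The 72 cells with Cxcl9 had 16 of 16 interferon gamma-responsive genes higher than the 54 without it, with the interval above 0 for 10 of them and a median log2 ratio of 0.66. Of all 2060 genes measured in this split, 50.7% were higher, 12.2% had the interval above 0 and 11% had it below 0. Cd274, which encodes PD-L1, was at 244 CPM with Cxcl9 and 75.3 without (1.69). For Cxcl10, 37 cells against 89, 15 of 16 genes were higher and 9 intervals lay above 0, with a median of 0.78, where 49.8% of all genes were higher, 9.27% had the interval above 0 and 6.65% had it below 0. Socs1, an inhibitor of interferon signalling, was at 296 CPM with Cxcl10 and 81.6 without (1.86). Cells with a ligand UMI were deeper, with medians of 2367.5 UMIs with Cxcl9 and 1979 without. They also differed in cluster. In cluster 7, 10 of 46 cells with combination and 4 of 24 with anti-CD27 had neither ligand. In monocyte-like cluster 9 these were 17 of 25 and 11 of 13. The part of depth, cluster and library in these splits was not tested.

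In T cells, genes of naive and homing cells were lower with anti-CD27 than with isotype control, and some type 1 effector genes were higher in the libraries that received anti-CD27. The cells compared differed in make-up, since effector CD8 T-like cells were 58 of 178 with combination, 62 of 146 with anti-CD27, 10 of 172 with anti-CD20 and 2 of 63 with isotype control, and the part of this in the values below was not tested. For combination against anti-CD20, 2 of 11 measured type 1 effector genes were more than 2-fold higher with combination, where 5.68% of 3219 genes were that much higher and 2.8% that much lower. Eomes, a T-box factor of cytotoxic cells, was at 203.5 CPM with combination and 53.0 with anti-CD20. Ccr7, the lymph node homing receptor, was the 1 of 5 naive and homing genes that passed 2-fold downward, at 131 CPM with combination and 294 with anti-CD20. For anti-CD27 against isotype control, 5 of 11 type 1 effector genes were more than 2-fold higher and 5 of 5 naive and homing genes more than 2-fold lower with anti-CD27, where 12% of 2205 genes were that much higher and 4.76% that much lower. Klrg1, a receptor of late effector cells, had 54 UMIs with anti-CD27 and 0 with isotype control. Itgb1, an integrin subunit, was the 1 type 1 effector gene past 2-fold downward, with a log2 ratio of -1.36. Klf2, a factor that maintains naive T cell trafficking, was at 255 CPM with anti-CD27 and 897 with isotype control. Of the interferon gamma-responsive genes, 2 of 14 measured in T cells were more than 2-fold higher for combination against anti-CD20 and 2 of 12 for anti-CD27 against isotype control.

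Among T-like and effector CD8 T-like cells of the 4 libraries, the 59 cells with a Cxcr3 UMI were set against the 500 without. Of 14 type 1 effector genes, 11 were higher in the cells with Cxcr3, with the interval above 0 for 5: Klrg1, Il18rap, Cd44, Id2 and Itgb1. Of all 4776 genes measured in this split, 47.7% were higher, 5.11% had the interval above 0 and 5.07% had it below 0. Klrg1 was at 338 CPM with Cxcr3 and 86.2 without (1.97), whereas Eomes was at 74.2 CPM with Cxcr3 and 171 without (-1.21). Of 15 interferon gamma-responsive genes, 6 were higher in the cells with Cxcr3 and 3 intervals lay below 0. These cells had a median of 1664 UMIs with Cxcr3 and 1012.5 without. Cxcr3 was found in 21 of 97 cells with Cd4 and no Cd8, and in 19 of 203 with Cd8 and no Cd4. By library it was in 19 of 178 cells with combination, 13 of 146 with anti-CD27, 24 of 172 with anti-CD20 and 3 of 63 with isotype control. The part of depth, lineage and library in this split was not tested.

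Over 27 combinations of cell class and library, the genes whose log level followed Cxcl9 most closely by Pearson correlation were Bcl2a1a (0.91), Gpr35 (0.91), Adrbk2 (0.89), Dnase1l3 (0.88) and Rasa4 (0.88). Those closest to Cxcl10 were Fcgr4 (0.84), Il1b (0.80) and Il1rn (0.79), and those closest to Cxcr3 were led by Sidt1 (0.88), with the T cell surface gene Cd6 among the 10 closest. The points share libraries, depth and cell classes, so these values describe likeness of pattern alone.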

How the data were processed

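The authors deposited 1 table of raw UMI counts per gene and barcode for the 4 Drop-seq libraries, and per the labels reads were handled with bcl2fastq, aligned to mm10 with STAR 2.5.0a and collapsed to molecules with the Drop-seq tools. Counts are whole molecules and are not normalized. Barcodes with 300 to 3000 detected genes were kept (432, 497, 501 and 340 with combination, anti-CD27, anti-CD20 and isotype control), and free RNA was not removed. Scrublet (scanpy 1.11.5) marked 16 of 1770 cells as doublets, which stayed in except in an alternative.

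Cells were scaled to their total and log-transformed, 2000 variable genes without the 3 genes and their pathway lists gave 30 principal components, and Leiden clustering (leidenalg 0.10.2, resolution 1.0, 15 neighbours) gave the clusters. A cluster took the name whose markers were most frequent among its 30 leading genes, with at least 3 required, and clusters with markers of 3 or more classes among the leading 10 stayed unnamed, both set after the clusters were seen. UMIs were summed per library and class and given as CPM with exact Poisson 95% intervals, shares with Clopper-Pearson intervals, and ratios with exact conditional intervals. For ratios of the 3 genes against a count of 0, the 0 was set to a floor of 3 counts per library. Ratios of list genes between libraries, with their medians and 2-fold calls, used 10 CPM added to each level. Zeros among the list genes were set to the floor only where the text says so. Gene lists were counted past 2-fold among genes above a count minimum, after the calculation was tested on simulated data. The 3 genes, the lists and the named genes were chosen with earlier results of these data known: the named genes are the 3 chemokine axis genes, genes of the lists that were measured, with a value where they had at least 30 UMIs in the cells described, and the 10 genes most like each axis gene in pattern. Promoter windows came from RefSeq (GRCm38.p6). Alternatives changed the gene limits, doublets, barcodes, scaling (edgeR 4.0.16 TMM), marker cutoffs and single cells. Some genes of the lists are not reported here by name.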

Additional observations from a re-analysis of the deposited data

How the results depend on the processing

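No ratio whose interval excluded 0 changed sign under any alternative run. The Cxcr3 ratio of anti-CD27 to isotype control, whose interval included 0, changed sign to -0.32 over all cells (0.39) as a mean over cells, and in T cells (0.32) to -0.11 with no upper gene limit and -0.09 as a mean over cells. The all-cell ratios of the ligands moved by less than their counting intervals under all 8. The share of Cxcl9 UMIs in macrophage/monocyte-like cells (85.4%) was 87.8% with at least 500 genes a cell, 82.3% with no upper gene limit, 90.9% without Scrublet doublets and 91.1% without barcodes 1 base apart. That of Cxcl10 (62.96%) was 71.9% with at least 500 genes, and that of Cxcr3 in T-like, effector and NK-like cells (74.3%) was 64.1% with no upper limit. The Cxcl10 log2 ratio in macrophage/monocyte-like cells against the floor of 3 counts, combination over anti-CD20 (3.28), was 2.99 with at least 500 genes, 3.55 with no upper limit, 3.53 with TMM and, chosen after seeing the data, 3.03 without the cell with the most UMIs. For anti-CD27 over isotype control (1.45) it was 2.32 with TMM, and 2.47 as a ratio of counts where cells were chosen by their own marker UMIs. TMM raised every log2 ratio of this class by 0.25 and 0.87 for these comparisons. The dendritic-like Cxcl9 ratio of anti-CD27 to isotype control (3.11) was 0.74 without doublets, 0.72 without barcodes 1 base apart and 1.67 without the cell with the most UMIs, and the cause was not tested. No paired analysis was possible because each treatment is 1 library. Depth limits Cxcr3, with 10 to 44 UMIs a library, and the 12 macrophage/monocyte-like cells with isotype control.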

Other observations

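The barcodes left out by the gene limits held ligand transcripts in the same libraries. Below 300 genes, Cxcl9 had 17 UMIs (88.7 CPM, 51.7 to 142) with combination, 12 (82.2 CPM) with anti-CD27, 0 with anti-CD20 and 3 (20.2 CPM, up to 58.9) with isotype control. Above 3000 genes, it had 18 UMIs (39.4 CPM) with combination, 17 (86.5 CPM) with anti-CD27 and 0 in both other libraries. Cxcl10 had 5 UMIs below 300 genes with combination, 1 with anti-CD27, 0 with anti-CD20 and 1 with isotype control, and above 3000 genes 4 with combination and 0 in the others. Cxcr3 had 4, 0, 4 and 2 UMIs below 300 genes with combination, anti-CD27, anti-CD20 and isotype control.

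The protease gene Dpp4, whose product trims the CXCR3 ligands, was at 166 CPM in T cells with combination and 96.4 with anti-CD20. Its log2 ratio was 0.72 with 10 CPM added to each level. Pf4, whose product binds a form of human CXCR3, had 0 UMIs in T cells.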
